A study of Mus musculus with 73 samples.

Results

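The subcortical maternal complex and the oocyte Nlrp genes were examined in RNA-seq libraries of mouse embryos. The 9 genes, taken by name from the 25220 gene symbols measured, were the core members Nlrp5, Tle6, Ooep and Khdc3, the associated members Padi6 and Zbed3, and the Nlrp genes Nlrp2, Nlrp4f and Nlrp14. All 9 were found and all were tested. There were 3 libraries of p150DN 8-cell embryos, 2 of EGFP blastocysts and 3 of EGFP 8-cell embryos. p150DN is a dominant-negative form of p150, the large subunit of chromatin assembly factor 1, which deposits histones H3 and H4 on replicated DNA, and EGFP embryos were the control. All embryos came from a hybrid C57BL/6 / C3H background and were kept in KSOM culture medium, and total RNA of whole embryos was made into stranded libraries. The series concerns histone H3.3 in the early embryo and holds 73 samples, of which the 65 chromatin samples were not analysed here. The labels do not give the number of embryos in a library or separate litters or cultures for the replicates, so the p-values reflect library-to-library spread, part or all of which may be technical.

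The subcortical maternal complex is a protein assembly stored below the plasma membrane of the mammalian oocyte and inherited by the cleaving embryo, where it is found in the outer cytoplasm and not at contacts between cells. Its genes are maternal-effect genes: embryos of mouse females that lack Nlrp5, Tle6, Ooep or Padi6 arrest in early cleavage, whatever the father's genotype. The proteins are also part of the cytoplasmic lattices, fibres on which the egg stores proteins, and the transcripts are known as products of the growing oocyte that decline after fertilization.

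Upstream sequences are shown for Khdc3 and Ooep, the pair of genes with higher levels in blastocysts than in 8-cell embryos, and for Nlrp5 and Padi6, a core and an associated gene with lower levels. Each run is the 250 bases before an annotated transcript start, 5′ to 3′ on the strand of the gene, from RefSeq (GRCm38.p6, the assembly of mm10). Capitals mark matches to the E-box CANNTG, a motif bound by basic helix-loop-helix factors, and to the NOBOX element (TAATTG or TAATTA, searched on both strands), which an oocyte homeobox factor binds. The windows are chr9:73102148-73102397 (plus strand) for Khdc3, chr9:78378589-78378838 (minus strand) for Ooep, chr7:23385639-23385888 (plus strand) for Nlrp5 and chr4:140742644-140742893 (minus strand) for Padi6.
Khdc3: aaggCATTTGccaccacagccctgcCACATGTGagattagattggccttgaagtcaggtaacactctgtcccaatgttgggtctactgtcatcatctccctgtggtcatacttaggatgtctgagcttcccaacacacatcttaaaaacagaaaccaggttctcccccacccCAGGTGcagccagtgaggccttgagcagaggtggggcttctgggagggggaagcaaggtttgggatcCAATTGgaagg
Ooep: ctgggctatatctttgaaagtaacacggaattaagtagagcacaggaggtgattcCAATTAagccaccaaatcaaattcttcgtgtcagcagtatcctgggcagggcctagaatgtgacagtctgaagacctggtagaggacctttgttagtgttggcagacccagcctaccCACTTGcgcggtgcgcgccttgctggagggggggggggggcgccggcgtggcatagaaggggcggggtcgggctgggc
Nlrp5: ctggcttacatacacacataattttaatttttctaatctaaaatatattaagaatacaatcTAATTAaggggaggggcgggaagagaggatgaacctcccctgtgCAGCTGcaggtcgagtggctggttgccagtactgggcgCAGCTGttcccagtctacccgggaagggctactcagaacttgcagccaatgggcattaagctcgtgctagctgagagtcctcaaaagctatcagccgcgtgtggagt
Padi6: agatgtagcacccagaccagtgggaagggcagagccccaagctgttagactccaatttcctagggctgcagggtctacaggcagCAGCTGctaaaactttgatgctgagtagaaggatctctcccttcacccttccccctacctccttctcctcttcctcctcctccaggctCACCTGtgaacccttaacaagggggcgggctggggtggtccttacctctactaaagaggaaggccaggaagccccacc

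The Khdc3 window held 5 E-box matches, of which a pair overlaps, with the nearest 11 bases before the start, and no NOBOX element. This window lies inside the annotated span of Khdc3 (73101381 to 73106631), before an internal transcript start. The Ooep, Nlrp5 and Padi6 windows adjoin the outer end of their spans. The motif and CpG counts of Khdc3 thus describe a stretch within the gene. The Ooep window held 1 E-box and 1 NOBOX element, the Nlrp5 window 2 E-boxes and 1 NOBOX element, and the Padi6 window 2 E-boxes. RefSeq windows were at hand for 8 of the 9 genes, Nlrp14 being the one without, and these 8 genes had 12 annotated windows. Nlrp5, Tle6 and Zbed3 had more than 1 window each, so the 12 windows are not independent. The Tle6 windows and the downstream windows of Nlrp5 and Zbed3 also lie inside the annotated spans. An E-box stood in 11 of the 12 windows and in 66.2% of all 32851 promoter windows of the same length, and a NOBOX element in 2 of the 12 and in 11.3% of all. CpG dinucleotides numbered 0 in the Khdc3 window, 11 in the Ooep window, 7 in the Nlrp5 window and 1 in the Padi6 window, against a median of 6 over all windows. These matches describe the letters only, and binding was not measured.

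Values are FPKM, counted fragments scaled by gene length and by the library's total, as deposited. The libraries held 16578221 to 22488477 counted fragments, and 1 FPKM then stands for 16.6 to 22.5 fragments in 1 kb of gene. Chaf1a, which encodes p150, was at 165.5, 254 and 238 FPKM with p150DN, at 26.5 and 27.2 FPKM in EGFP blastocysts and at 27.7, 30.2 and 28.8 FPKM in EGFP 8-cell embryos, so the p150DN libraries were above all others. Stage markers were checked over whole lists. The summed level of 6 trophectoderm markers (Cdx2, Gata3, Krt8, Krt18, Eomes, Tfap2c), of the outer blastocyst layer, was 330 to 529 FPKM in p150DN 8-cell embryos, 1110 and 1167 FPKM in EGFP blastocysts and 101 to 119 FPKM in EGFP 8-cell embryos. The sum of 5 inner cell mass markers was 518 to 771, 973 and 1024, and 332 to 550 FPKM in the same groups. Of 10 cumulus and granulosa cell markers, cells that surround the oocyte, none reached the level needed for testing, and their sum was 0.576 to 2.26 FPKM over all 8 libraries.

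One p150DN library stood apart for these genes. Replicate 1 was the lowest of the 3 p150DN libraries for 7 of the 9 genes and the highest for Khdc3 and Ooep. The summed level of those 7 genes was 40.6, 78.9 and 70.3 FPKM in p150DN replicates 1, 2 and 3, 17.4 and 19.2 FPKM in EGFP blastocysts and 88.4, 105 and 92.7 FPKM in EGFP 8-cell embryos. The 6 oocyte markers Gdf9, Bmp15, Zp1, Zp2, Zp3 and Oosp1 had sums of 31.7, 72.4 and 56.8 FPKM in p150DN 8-cell embryos, 9.65 and 8.64 FPKM in blastocysts and 79.7, 83.5 and 66.0 FPKM in EGFP 8-cell embryos. Over the whole table, p150DN replicate 1 had 18412 genes above 0, against 20465 and 21282 in p150DN replicates 2 and 3. How often replicate 1 was the lowest over all genes was not counted, so its place is not shown to be particular to these genes. Results for the 9 genes and counts over related gene lists are therefore also given without p150DN replicate 1.

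Khdc3 (chromosome 9, 73101381 to 73106631) encodes the KH-domain protein FILIA, which in mouse eggs is needed for accurate chromosome segregation in cleavage divisions and is also made in embryonic stem cells. It was at 388, 217 and 277 FPKM in p150DN 8-cell embryos, at 606 and 580 FPKM in EGFP blastocysts and at 39.0, 28.5 and 52.4 FPKM in EGFP 8-cell embryos. The groups did not overlap: every p150DN library lay above every EGFP 8-cell library and below both blastocyst libraries. Khdc3 had the highest mean of the 9 genes in each group, and it stood above 99.2% of detected genes in p150DN 8-cell embryos, 99.7% in blastocysts and 89.6% in EGFP 8-cell embryos. The values rest on 13335, 7165 and 7744 fragments in p150DN 8-cell embryos, 19796 and 21995 in blastocysts and 1369, 971 and 1708 in EGFP 8-cell embryos.

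Ooep (chromosome 9, 78376903 to 78378588) encodes FLOPED, a small KH-like protein that binds NLRP5 and TLE6 in the core. It was at 4.23, 3.47 and 2.90 FPKM in p150DN 8-cell embryos, at 14.7 and 8.55 FPKM in blastocysts and at 3.70, 2.09 and 3.00 FPKM in EGFP 8-cell embryos. Both blastocyst libraries lay above all 8-cell libraries, and the p150DN and EGFP 8-cell ranges overlapped. Ooep rested on few fragments, 104, 82 and 58 in p150DN 8-cell embryos, 343 and 232 in blastocysts and 93, 51 and 70 in EGFP 8-cell embryos. Its mean was the eighth of the 9 genes in both 8-cell groups and the second in blastocysts.

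Nlrp5 (chromosome 7, 23385889 to 23441923) encodes MATER, the NLR-family scaffold of the complex. It was at 4.63, 8.18 and 7.36 FPKM in p150DN 8-cell embryos, at 1.76 and 1.46 FPKM in blastocysts and at 9.73, 11.7 and 10.8 FPKM in EGFP 8-cell embryos. The 3 groups did not overlap, with EGFP 8-cell embryos highest and blastocysts lowest. Tle6 (chromosome 10, 81590904 to 81601185), a relative of the Groucho co-repressors that binds NLRP5 and OOEP, was at 3.76, 9.75 and 7.39 FPKM in p150DN 8-cell embryos, at 2.44 and 2.93 FPKM in blastocysts and at 9.13, 8.18 and 10.4 FPKM in EGFP 8-cell embryos. Only the blastocysts lay apart for Tle6: p150DN replicate 2 fell within the EGFP 8-cell range, and replicate 1 was nearer to the blastocysts. The annotated span of Tle6 overlaps that of Tle2, which averaged 0.153 FPKM in p150DN 8-cell embryos, 0.0640 FPKM in blastocysts and 0.140 FPKM in EGFP 8-cell embryos.

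Padi6 (chromosome 4, 140727355 to 140742643), a member of the peptidylarginine deiminase family without which the cytoplasmic lattices do not form, was at 15.3, 22.5 and 23.1 FPKM in p150DN 8-cell embryos, at 4.69 and 5.24 FPKM in blastocysts and at 23.3, 29.0 and 23.3 FPKM in EGFP 8-cell embryos. The highest p150DN library lay just below the lowest EGFP 8-cell library, and the blastocysts lay far below both. Zbed3 (chromosome 13, 95323605 to 95337842), a zinc-finger protein tied to spindle position in the zygote, was at 7.29, 19.1 and 18.3 FPKM in p150DN 8-cell embryos, at 3.41 and 2.62 FPKM in blastocysts and at 19.4, 28.3 and 21.8 FPKM in EGFP 8-cell embryos. The Zbed3 groups did not overlap, but p150DN replicates 2 and 3 were close to EGFP 8-cell replicate 1. The small RNA gene Snora47 lies within the annotated span of Zbed3.

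Nlrp4f (chromosome 13, 65177111 to 65205716), an NLR protein that binds the complex and whose loss lowers fertility in female mice, was at 3.70, 5.97 and 4.94 FPKM in p150DN 8-cell embryos, at 2.68 and 4.45 FPKM in blastocysts and at 10.2, 10.5 and 8.99 FPKM in EGFP 8-cell embryos. The p150DN and blastocyst ranges overlapped, and both lay below all EGFP 8-cell libraries. Reads of Nlrp4f may be shared with other Nlrp4 copies. Nlrp14 (chromosome 7, 107113455 to 107198103), a maternal-effect gene needed for cleavage in mice, was at 5.26, 11.8 and 8.14 FPKM in p150DN 8-cell embryos, at 2.30 and 2.19 FPKM in blastocysts and at 15.1, 15.9 and 15.9 FPKM in EGFP 8-cell embryos. Its 3 groups did not overlap, and the p150DN libraries were the most spread. Nlrp2 (chromosome 7, 5298547 to 5351035), also a maternal-effect gene in mice, was the lowest of the 9 genes in every group, at 0.678, 1.61 and 1.01 FPKM in p150DN 8-cell embryos, 0.152 and 0.340 FPKM in blastocysts and 1.45, 1.90 and 1.53 FPKM in EGFP 8-cell embryos. The Nlrp2 values rest on 47, 107 and 57 fragments in p150DN 8-cell embryos, 10 and 26 in blastocysts and 103, 131 and 101 in EGFP 8-cell embryos. The spans of Nlrp14 (Olfr715, Olfr716) and Nlrp2 (Gm5065) hold or touch other genes of the table, and reads of such pairs cannot be told apart here.

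**Figure D1:**
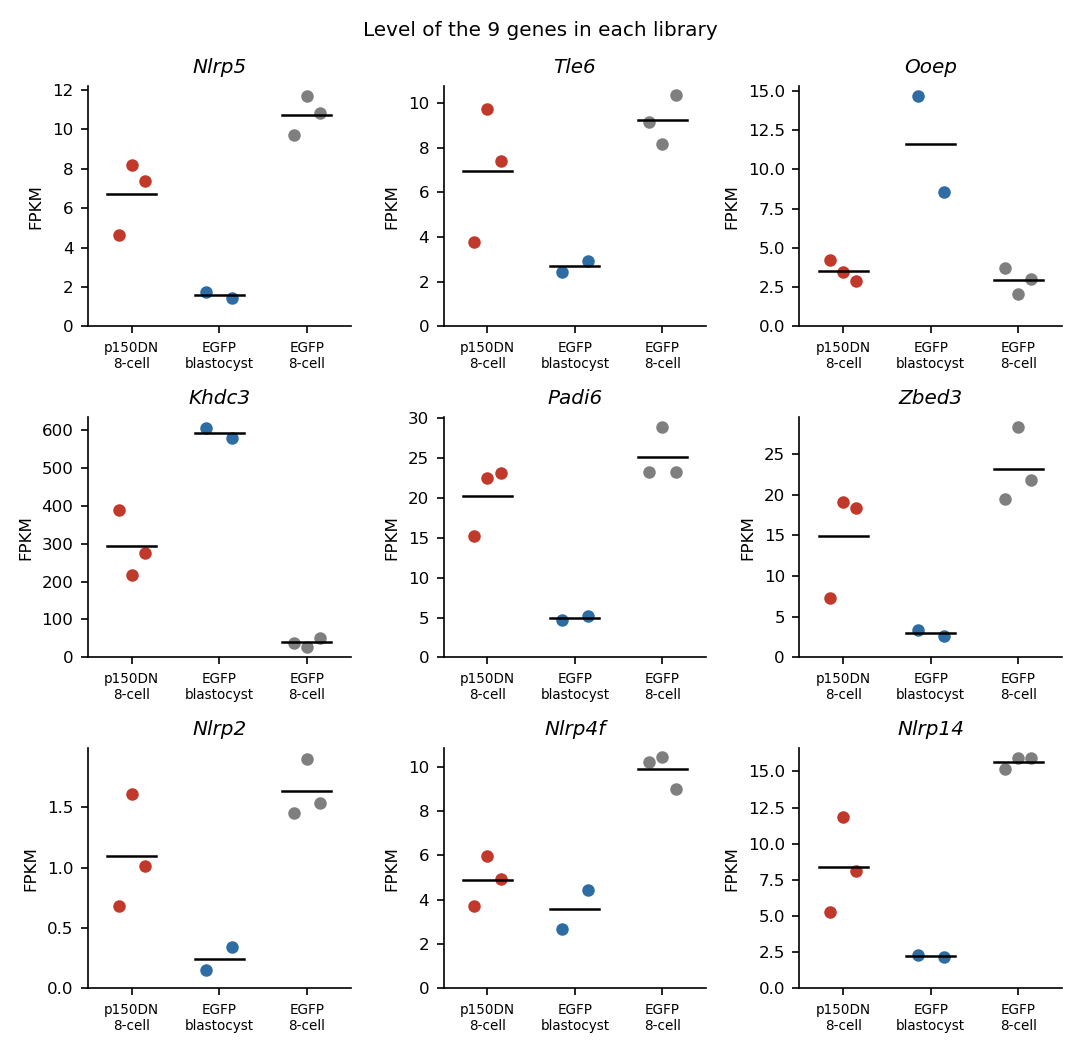
FPKM of each of the 9 genes (vertical axes, linear, each with its own scale) in the 3 p150DN 8-cell, 2 EGFP blastocyst and 3 EGFP 8-cell libraries; points are libraries and lines are group means. Khdc3 lies at 217 to 388 FPKM in p150DN 8-cell embryos, against 28.5 to 52.4 FPKM in EGFP 8-cell embryos, while Nlrp5, Nlrp4f and Nlrp14 lie below the EGFP 8-cell libraries.

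The first comparison, of p150DN against EGFP embryos at the 8-cell stage, asked which of these transcripts differ with the construct. Khdc3 rose and Nlrp4f, Nlrp14 and Nlrp5 fell, and the other 5 genes did not pass the test. In mean and SD over 3 libraries each, Khdc3 was at 294 ± 86.7 FPKM in p150DN 8-cell embryos, against 40.0 ± 12.0 FPKM in the EGFP controls, a ratio of means of 7.36, and its log2 fold change was 2.85 with an SE of 0.25 (limma adjusted p = 0.000269). Nlrp4f averaged 4.87 ± 1.14 FPKM in p150DN embryos, against 9.88 ± 0.784 FPKM in the controls (log2 fold change -0.91 ± 0.19 SE, limma adjusted p = 0.00780). Nlrp14 averaged 8.41 ± 3.3 and 15.7 ± 0.447 FPKM in the same groups (-0.88 ± 0.24, limma adjusted p = 0.0226), and Nlrp5 averaged 6.72 ± 1.86 and 10.8 ± 0.983 FPKM (-0.63 ± 0.21, limma adjusted p = 0.0461). All fold changes were computed after adding 1 to each FPKM value, so those of weakly expressed genes are understated, and calls are at an adjusted p below 0.05 over all genes tested. In RNA of whole embryos, fewer cells of a type and less RNA per cell cannot be told apart.

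Thus 1 of the 9 genes was called higher, where 24.6% of the 11730 genes tested were, and 3 were called lower, where 9.68% of all genes were. Counted by libraries that did not overlap, 1 of the 9 was higher in p150DN embryos (34.3% of all genes) and 5 were lower (15.5% of all genes), the 3 called genes with Padi6 and Zbed3. The median log2 fold change of the 9 genes was -0.43, against 0.19 over all genes. Without p150DN replicate 1 these medians were -0.20 and 0.22, and with replicate 1 as the lone p150DN library -1.06 and 0.14. The log2 fold changes that did not pass were -0.69 ± 0.32 for Zbed3 (limma adjusted p = 0.128), -0.43 ± 0.28 for Tle6 (0.263), -0.35 ± 0.22 for Nlrp2 (0.254), -0.31 ± 0.19 for Padi6 (0.220) and 0.22 ± 0.22 for Ooep (0.474). With the libraries rescaled by the median of ratios, which brought the median of all genes from 0.19 to 0.00, Khdc3 was at 2.64 (limma adjusted p = 0.000411), and Padi6 (-0.52, 0.0429) and Zbed3 (-0.90, 0.0458) were called lower as well. The calls over all genes were then 2023 higher and 1994 lower, against 2887 higher and 1136 lower as deposited.

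Without p150DN replicate 1, Khdc3 remained called at 2.63 (limma adjusted p = 0.000732), Nlrp4f at -0.75 (0.0170) and Nlrp14 at -0.62 (0.0393), but Nlrp5 was at -0.42 and lost its call (0.0974). The Nlrp5 call was also lost without p150DN replicate 3 or any 1 of the EGFP 8-cell libraries (0.0768 to 0.123), and that of Nlrp14 in the same 4 cases (limma adjusted p = 0.0607 to 0.0626). The calls of Khdc3 and Nlrp4f held in all 15 alternatives run, with adjusted p of 6.4e-05 to 0.00783 for Khdc3 and 0.00192 to 0.0361 for Nlrp4f. The alternatives do not address how reads were split between Nlrp4f and the other Nlrp4 copies. Of the trophectoderm markers 5 of 6 were called higher in p150DN embryos and of the oocyte markers 1 of 6, Oosp1, was called lower. Their part in the results for the 9 genes was not tested.

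The comparison of EGFP blastocysts with EGFP 8-cell embryos asked how the transcripts differ between the stages in control embryos. All 9 genes passed: Khdc3 and Ooep rose and the other 7 fell. Khdc3 averaged 593 ± 18.6 FPKM in blastocysts (SD, n = 2) and 40.0 ± 12.0 FPKM in 8-cell embryos (SD, n = 3), a ratio of 14.85 and a log2 fold change of 3.90 ± 0.23 (limma adjusted p = 3.1e-05). Ooep averaged 11.6 ± 4.33 FPKM in blastocysts and 2.93 ± 0.808 FPKM in 8-cell embryos (1.66 ± 0.27, limma adjusted p = 0.00152). Zbed3 fell the most, to 3.01 ± 0.561 FPKM in blastocysts, against 23.2 ± 4.57 FPKM in 8-cell embryos (-2.58 ± 0.20). On this scale it was followed by Nlrp14 (-2.36 ± 0.14), Nlrp5 (-2.17 ± 0.16), Padi6 (-2.13 ± 0.15), Tle6 (-1.47 ± 0.17), Nlrp4f (-1.28 ± 0.21) and Nlrp2 (-1.08 ± 0.17), with limma adjusted p of 3.2e-05 to 0.00137 for these 7. The scale understates the fall of Nlrp2, the lowest of the 9 genes. By the ratio of means, Nlrp2 (0.151) fell more than Padi6 (0.197), Tle6 (0.291) and Nlrp4f (0.361). Zbed3 and Nlrp14 fell more than Nlrp2 by that ratio, and Nlrp5 about as much.

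Of all 12199 genes tested, 42.6% were called higher and 24.9% lower in blastocysts, so that 67.5% of genes changed in one direction or the other. By libraries that did not overlap, 2 of the 9 genes were higher (49.3% of all genes) and 7 lower (30.3%). The median log2 fold change of the 9 genes was -1.47, against 0.28 over all genes. Each of the 9 calls held in every alternative in which the gene was tested, including those that left out 1 library. The 6 oocyte markers were all called lower and 5 of the 6 trophectoderm markers higher in the blastocysts. Their part in these results was not tested.

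p150DN 8-cell embryos were then set against EGFP blastocysts, a comparison in which construct and stage differ together, to place the p150DN levels. Zbed3, Padi6, Nlrp5 and Nlrp14 were higher in p150DN 8-cell embryos, and Ooep and Khdc3 were lower. The log2 fold changes were 1.89 ± 0.39 for Zbed3 (limma adjusted p = 0.0160), 1.81 ± 0.22 for Padi6 (0.00420), 1.54 ± 0.26 for Nlrp5 (0.00960) and 1.48 ± 0.30 for Nlrp14 (0.0161). They were -1.44 ± 0.26 for Ooep (0.0115) and -1.05 ± 0.23 for Khdc3 (0.0197), whose p150DN mean was 0.496 of the blastocyst mean. Tle6 (1.04 ± 0.34, limma adjusted p = 0.0610), Nlrp2 (0.73 ± 0.29, 0.0989) and Nlrp4f (0.37 ± 0.26, 0.312) did not pass. Over the 12648 genes tested 11.9% were called higher and 14.2% lower, and by libraries that did not overlap 6 of the 9 genes were higher (27.1% of all genes) and 2 lower (33.8%).

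This comparison rests on 2 blastocyst libraries: none of the 9 genes passed when either was left out (limma, 79 and 116 of all genes called, and 0 of the 9, though 4 higher and 2 lower had an unadjusted p below 0.05 each time), where the lone library is assumed to vary like the p150DN group. The call of Khdc3 was also lost without p150DN replicate 3 (limma adjusted p = 0.0509), and Tle6 (1.37, 0.0102) and Nlrp2 (0.88, 0.0318) were called without p150DN replicate 1. Each pair of the 3 comparisons shares the libraries of 1 group, so their fold changes are not independent of one another.

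Set in order, the p150DN mean lay between the other two for all 9 genes. How often this holds over all genes was not counted, so it cannot be called particular to the 9. For Khdc3, Nlrp5 and Nlrp14 the difference from p150DN embryos passed the test against both neighbours. For Nlrp4f it passed against EGFP 8-cell embryos, and the p150DN and blastocyst libraries overlapped. For Ooep, Padi6 and Zbed3 it passed against blastocysts. Against EGFP 8-cell embryos it did not pass for these 3, though for Padi6 and Zbed3 all p150DN libraries lay below all EGFP 8-cell libraries, while those of Ooep overlapped. For Tle6 and Nlrp2 it passed against neither neighbour: the p150DN libraries overlapped with the EGFP 8-cell libraries and lay above both blastocyst libraries.

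**Figure D2:**
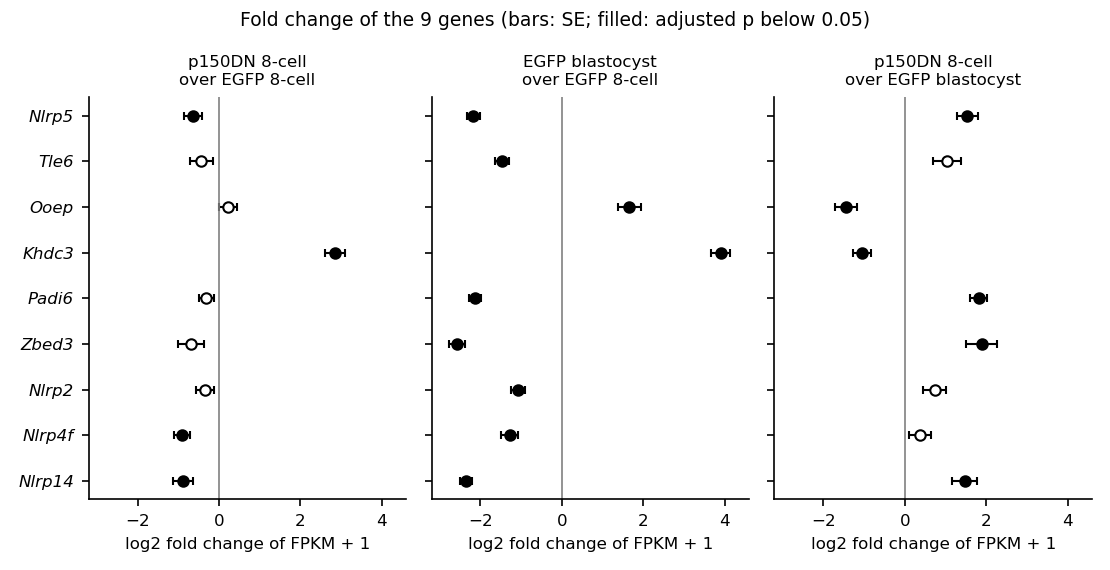
Log2 fold change of FPKM + 1 for the 9 genes in the 3 comparisons (horizontal axes), with bars for the SE; filled points passed at a limma adjusted p below 0.05. Khdc3 is at 2.85, 3.90 and -1.05 from left to right, while the 7 genes other than Khdc3 and Ooep lie below 0 in both comparisons with EGFP 8-cell embryos.

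The makeup of the core transcripts changed with these levels. Only RNA was measured, so the shares below do not describe the protein complex. Since FPKM is per length, levels can be set between genes. Khdc3 made up 96.8%, 91.0% and 94.0% of the summed FPKM of the 4 core genes in p150DN 8-cell embryos, 97.0% and 97.8% in blastocysts and 63.3%, 56.5% and 68.4% in EGFP 8-cell embryos. The lowest p150DN share was thus above the highest EGFP 8-cell share. The ratio of Khdc3 to Nlrp5 was 83.9, 26.6 and 37.7 in p150DN 8-cell embryos, 344 and 398 in blastocysts and 4.01, 2.43 and 4.83 in EGFP 8-cell embryos. The ratio of Ooep to Nlrp5 was 0.914, 0.424 and 0.394 in p150DN 8-cell embryos, 8.32 and 5.87 in blastocysts and 0.380, 0.179 and 0.277 in EGFP 8-cell embryos. For both ratios the groups did not overlap, though for Ooep the lowest p150DN value was close to the highest EGFP 8-cell value. Padi6 over Nlrp5 moved less, at 3.3, 2.75 and 3.14 in p150DN 8-cell embryos, 2.66 and 3.60 in blastocysts and 2.39, 2.48 and 2.15 in EGFP 8-cell embryos, and here too the p150DN libraries lay above all EGFP 8-cell libraries, within the blastocyst range. Tle6 over Nlrp5 was 0.812, 1.19 and 1.00 in p150DN 8-cell embryos, 1.39 and 2.01 in blastocysts and 0.938, 0.699 and 0.956 in EGFP 8-cell embryos, with overlap between the 8-cell groups.

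**Figure D3:**
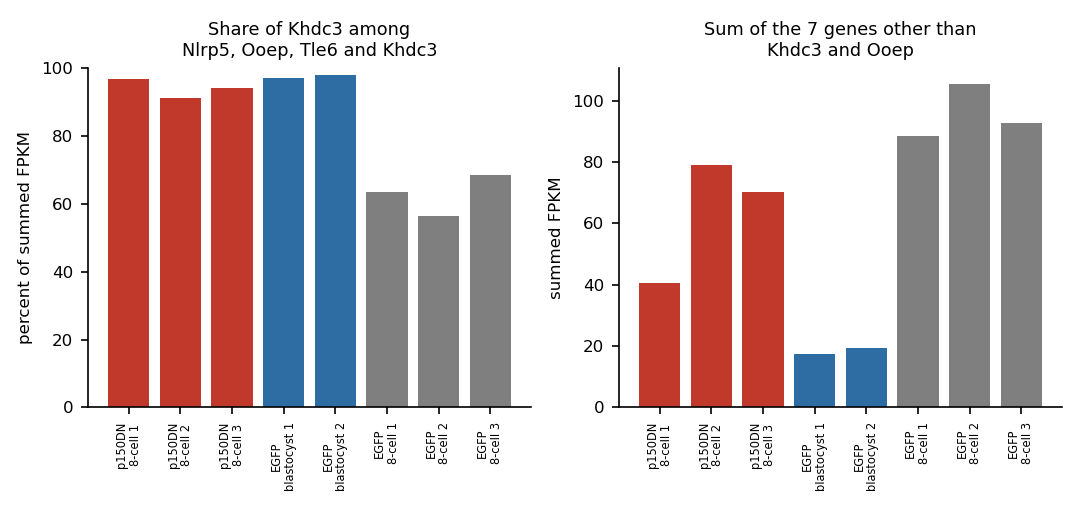
Share of Khdc3 in the summed FPKM of Nlrp5, Ooep, Tle6 and Khdc3 (left, percent) and summed FPKM of the 7 genes other than Khdc3 and Ooep (right), with 1 bar per library. The Khdc3 share is 91.0% or more in the p150DN and blastocyst libraries, against at most 68.4% in EGFP 8-cell libraries, and p150DN replicate 1 has the lowest summed level of the 8-cell libraries, 40.6 FPKM.

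Across the 8 libraries, which share 3 groups, the 7 genes other than Khdc3 and Ooep had Pearson correlations on the log2 scale of 0.767 to 0.989 over their 21 pairs, with a median of 0.951. Khdc3 correlated with them at -0.96 to -0.769 and Ooep at -0.966 to -0.759, and Khdc3 with Ooep at 0.724. These values mainly follow the differences between the groups and are given as a description. Among the 7113 genes whose mean reached 5 FPKM, those most like each gene were picked by the same correlation over the 8 libraries. Nlrp5 was closest to Kdm4c, Tcirg1 and Ccdc171 (r from 0.994 to 0.995), Tle6 to Pramel1, Supt7l and Sms (0.983 to 0.988), and Padi6 to Gata1, Sfi1 and Zp3 (0.994 to 0.995). Zbed3 was closest to Zim3, Clock and Slc25a25 (0.991 to 0.996), Nlrp2 to Rnf20, Arl3 and Acbd5 (0.989 to 0.993), Nlrp4f to Spdl1, Mlxip and Jak2 (0.981 to 0.989) and Nlrp14 to Med23, Esco1 and Ankrd44 (0.995 to 0.996). Khdc3 was closest to Tprkb, Tuba4a and Smdt1 (0.995 to 0.996) and Ooep to Casc4, Ormdl2 and Ndfip1 (0.963 to 0.972). Of the oocyte markers, Zp3, which encodes a protein of the egg coat, stood among the closest genes of Padi6, at 12.3 ± 4.73 FPKM in p150DN 8-cell embryos, 1.21 ± 0.103 FPKM in blastocysts and 15.5 ± 1.85 FPKM in EGFP 8-cell embryos.

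Khdc3 and Ooep both lie on chromosome 9, and the protein-coding genes within 100 kb of each start were compared. Near Khdc3, the ribosome biogenesis gene Rsl24d1 averaged 150 ± 24.7 FPKM in p150DN 8-cell embryos, 82.7 ± 9.10 FPKM in blastocysts and 226 ± 23.8 FPKM in EGFP 8-cell embryos. It was called lower in p150DN embryos (-0.60, limma adjusted p = 0.0152) and in blastocysts (-1.44, 0.000112), each against EGFP 8-cell embryos, and the first of these calls was lost without p150DN replicate 3, EGFP 8-cell replicate 1 or EGFP 8-cell replicate 2 (adjusted p up to 0.0608). Rab27a and Pigb, the other 2 neighbours measured, had log2 fold changes of 0.40 (limma adjusted p = 0.0886) and 0.22 (0.283) in p150DN embryos. In blastocysts Rab27a was called lower (-0.52, limma adjusted p = 0.0253), a call lost without either blastocyst library or without EGFP 8-cell replicate 1 or 2, and Pigb did not pass (-0.17, 0.527). None of the 3 measured neighbours of Khdc3 was called higher in either comparison with EGFP 8-cell embryos. Over all genes 24.6% were called higher in p150DN embryos and 42.6% in blastocysts, and 3 genes are too few to differ from these shares. Near Ooep, the oocyte gene Omt2a averaged 1.97 ± 1.30 FPKM in p150DN 8-cell embryos, 0.305 ± 0.00689 FPKM in blastocysts and 12.65 ± 7.54 FPKM in EGFP 8-cell embryos, and fell in p150DN embryos (-2.18, limma adjusted p = 0.00663) and in blastocysts (-3.25, 0.000428). Omt2b averaged 2.14 ± 1.18 FPKM, 0.508 ± 0.375 FPKM and 34.2 ± 33.4 FPKM in the same groups, with an SD in EGFP 8-cell embryos nearly as large as the mean, and fell as well (-3.14, limma adjusted p = 0.00468, and -4.14, 0.00149). Dppa5a, a KH-domain gene of pluripotent cells that lies beside Ooep, was at 407 ± 26.9 FPKM in p150DN 8-cell embryos, 539 ± 39.9 FPKM in blastocysts and 353 ± 21.5 FPKM in EGFP 8-cell embryos. It rose in blastocysts (0.61, limma adjusted p = 0.00176), as did Mto1 (0.73, 0.00584), whose call was lost without EGFP blastocyst replicate 1 (adjusted p = 0.102), and the germ cell helicase gene Ddx43 fell (-0.91, 0.00419).

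Genes related to the 9 were taken from lists by family and function. Their counts are set against the shares called over all genes, which were 24.6% higher and 9.68% lower in p150DN embryos and 42.6% higher and 24.9% lower in blastocysts, each against EGFP 8-cell embryos. Of 9 other reproductive Nlrp genes, 8 were found and tested. In p150DN embryos 1 rose, none fell and 7 did not pass, and in blastocysts 1 rose and 7 fell, each against EGFP 8-cell embryos (limma). At an unadjusted p below 0.05, 1 was lower in p150DN embryos. The gene that rose was Nlrp4c in both cases. It was at 14.5, 12.9 and 24.9 FPKM in p150DN 8-cell embryos, at 50.7 and 59.8 FPKM in blastocysts and at 8.74, 7.74 and 5.38 FPKM in EGFP 8-cell embryos. The Nlrp4c groups did not overlap, and its log2 fold changes were 1.12 ± 0.26 in p150DN embryos (limma adjusted p = 0.0117) and 2.78 ± 0.20 in blastocysts (5.7e-05). On this scale, which understates weakly expressed genes, Nlrp4a (-1.81) and Nlrp4g (-1.86) fell the most in blastocysts. Nlrp4b, Nlrp4e, Nlrp4g, Nlrp9a and Nlrp9c were below 1 FPKM in both blastocyst libraries. They were tested only through EGFP 8-cell embryos, where they were higher, so the number that fell is largely set by the filter. The Nlrp4 genes are related to one another, as are the Nlrp9 genes, and reads may be shared within each set, so single values are uncertain. How alike their sequences are was not measured. The list median in p150DN embryos was -0.30, against 0.19 for all genes. Without p150DN replicate 1, 2 of the 8 were called higher and the list median was -0.17, and under quantile normalization 5 of the 8 were called lower.

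The KH-domain list holds Khdc1a, Khdc1b, Khdc1c and Dppa5a, relatives of Khdc3 and Ooep by their RNA-binding fold. Unlike Khdc3, the 3 Khdc1 genes were called lower in p150DN embryos, and 3 of the 4 list genes were also without p150DN replicate 1. Khdc1b was at 10.4, 23.6 and 15.1 FPKM in p150DN 8-cell embryos, at 3.42 and 3.29 FPKM in blastocysts and at 58.1, 82.6 and 57.4 FPKM in EGFP 8-cell embryos, with no overlap between groups. Its log2 fold change was -2.00 ± 0.27 in p150DN embryos (limma adjusted p = 0.00113) and -3.92 ± 0.18 in blastocysts (1.8e-05). Khdc1a fell in p150DN embryos by 1.10 (limma adjusted p = 0.0181), a call lost without EGFP 8-cell replicate 2 (0.0558), and Khdc1c by 0.65 (0.0332), a call lost in 8 of 15 alternatives and in 5 of the 6 that left out 1 library. All 3 fell in blastocysts, where Khdc1a fell by 2.26 and Khdc1c fell by 1.64 on the log2 scale. The Khdc1 genes are close copies, so reads may be shared among them.

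The lattice and ubiquitin ligase list holds genes whose proteins were found on the cytoplasmic lattices or act with them: Uhrf1, Ube2d3, Skp1a, Dnmt1, Spin1 and oocyte Fbxw genes, substrate receptors of ubiquitin ligases. Of 14 tested, 3 rose and 2 fell in p150DN embryos, near the shares over all genes, and 2 rose and 10 fell in blastocysts. Without p150DN replicate 1, 2 rose and 1 fell in p150DN embryos. Uhrf1, a chromatin protein that guides maintenance of DNA methylation, was at 14.9, 18.4 and 19.9 FPKM in p150DN 8-cell embryos, at 37.7 and 49.8 FPKM in blastocysts and at 8.37, 8.58 and 8.61 FPKM in EGFP 8-cell embryos. It rose in both, by a log2 fold change of 0.97 ± 0.16 in p150DN embryos (limma adjusted p = 0.00250) and 2.22 ± 0.15 in blastocysts (4.7e-05). Skp1a, an adaptor of such ligases, rose in both too (0.60 and 0.85). Ube2d3 was called higher in p150DN embryos (0.45, limma adjusted p = 0.0358), a call lost in 9 of 15 alternatives. Spin1 fell in both (-0.76 and -1.13), and its call in p150DN embryos was lost without EGFP 8-cell replicate 2 (limma adjusted p = 0.0550). All 9 tested Fbxw genes fell in blastocysts, Fbxw24 the most (-2.65 ± 0.16). Of these calls, those of Fbxw14 and Fbxw20 were lost without EGFP blastocyst replicate 1 (limma adjusted p = 0.0673 and 0.0680) and that of Fbxw21 without EGFP blastocyst replicate 2 (0.0503). In p150DN embryos 1 of the 9, Fbxw24, was called lower (-0.73, limma adjusted p = 0.0394), and that call was lost on leaving out p150DN replicate 1 or 3 or any 1 EGFP 8-cell library (up to 0.113). Fbxw18, Fbxw20, Fbxw26 and Fbxw28 were below 1 FPKM in both blastocyst libraries. They were tested only through EGFP 8-cell embryos, where they were higher, so the number that fell in blastocysts is partly set by the filter. Of the listed Fbxw genes that were not tested, Fbxw17 had a higher mean in blastocysts, and Fbxw13, Fbxw16 and Fbxw22 a lower one. Fbxw genes are close copies too, and single values are uncertain.

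**Figure D4:**
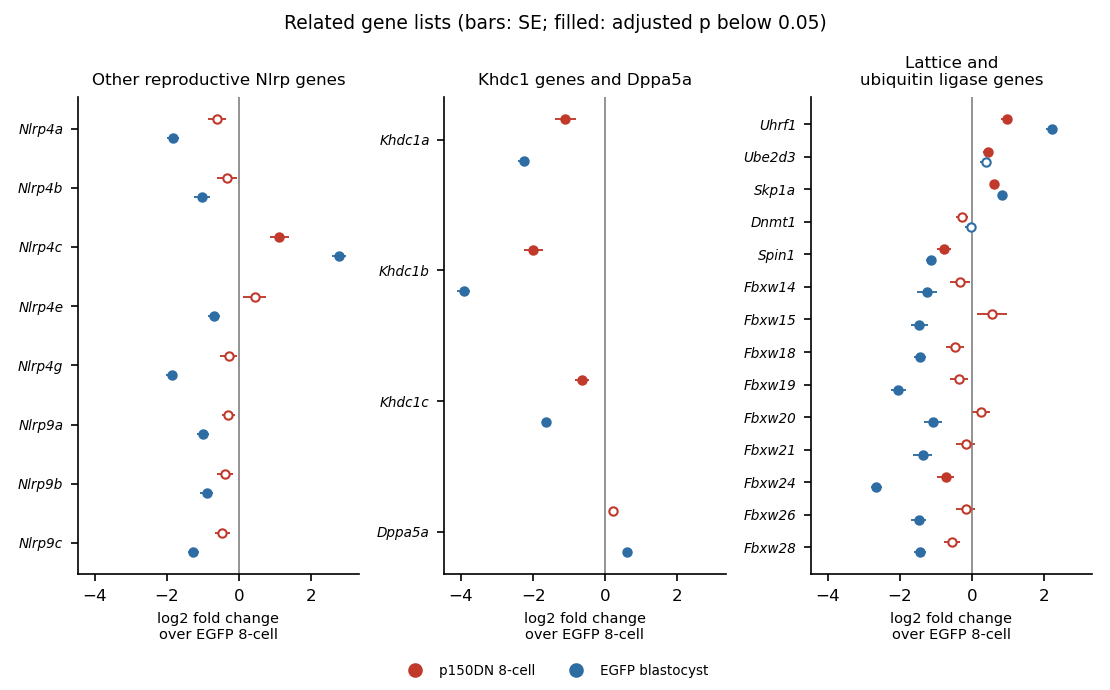
Log2 fold change over EGFP 8-cell embryos for p150DN 8-cell embryos (red) and EGFP blastocysts (blue) of other reproductive Nlrp genes, Khdc1 genes with Dppa5a, and lattice and ubiquitin ligase genes; bars are SE, filled points passed at a limma adjusted p below 0.05, and both comparisons share the EGFP 8-cell libraries. Nlrp4c (1.12 and 2.78) and Uhrf1 (0.97 and 2.22) lie to the right of 0, and Khdc1b (-2.00 and -3.92) to the left.

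Of 22 other maternal-effect genes, 2 rose, 4 fell and 16 did not pass in p150DN embryos, and 3 rose and 11 fell in blastocysts. Btg4, an adaptor for removal of maternal mRNA, was at 5.57, 9.57 and 5.90 FPKM in p150DN 8-cell embryos, at 1.65 and 1.02 FPKM in blastocysts and at 23.5, 25.5 and 22.5 FPKM in EGFP 8-cell embryos. It fell by 1.66 in p150DN embryos and by 3.42 in blastocysts on the log2 scale (limma adjusted p = 0.000747 and 2.1e-05). Npm2, the egg histone chaperone nucleoplasmin, fell by 1.36 and by 3.19 in the same comparisons (limma adjusted p = 0.00171 and 2.8e-05). This list had a median of -0.12 in p150DN embryos, against 0.19 over all genes, and without p150DN replicate 1 also 2 rose and 4 fell. With median-of-ratios scaling 1 rose and 8 fell. Zar1l and Bnc1, among the genes that fell in blastocysts, were below 1 FPKM in both blastocyst libraries and were tested only through EGFP 8-cell embryos.

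Of 9 tested paralogs of Padi6, Tle6 and Zbed3, 3 rose (Padi3, Tle5 and Tle1) and 1 fell (Zbed4) in p150DN embryos, and 4 rose and 1 fell in blastocysts. The p150DN counts and the number that rose in blastocysts are near the shares over all genes, and 4 rose and 1 fell in p150DN embryos without p150DN replicate 1. Padi3 averaged 2.16 ± 1.07 FPKM in p150DN 8-cell embryos, 1.88 ± 0.804 FPKM in blastocysts and 0.0750 ± 0.0470 FPKM in EGFP 8-cell embryos (log2 fold changes 1.49 ± 0.27 and 1.39 ± 0.20, limma adjusted p = 0.00409 and 0.000903). Padi3 and Tle1 were below 1 FPKM in every EGFP 8-cell library. They were tested only through the groups where they were higher, so their direction was set by the filter. Tle5 was at 0.85 (limma adjusted p = 0.00981) and Tle1 at 0.83 (0.0155) in p150DN embryos, but neither passed under quantile normalization, where 1 of the 9 rose, and Tle1 was also lost without p150DN replicate 3 or EGFP 8-cell replicate 1 (adjusted p up to 0.133).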

How the data were processed

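The authors deposited one table of FPKM, fragment counts scaled by gene length and library total, with 25220 gene symbols, per the file headers. Tools named in the submitters' processing notes are Trim Galore, HISAT2, Bowtie2, SAMtools and featureCounts (no versions or roles), and the build is mm10. Which annotation was used and whether strand was counted is not given in the sources used here, which leaves overlapping genes uncertain. The 3 columns named for 8-cell embryos without a construct were taken as EGFP 8-cell libraries, the one 8-cell RNA-seq group in the labels without p150DN. Because totals are fixed, higher values of some genes lower those of the rest. Of the symbols, 24920 (98.8%) matched RefSeq GRCm38.p6, the assembly of mm10.

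Fragments per library and gene were recovered from the values: the most frequent product of FPKM and length among short RNA genes gave the worth of 1 fragment, and the shortest length that gave whole fragments in all 8 libraries (within 0.02) was used, so gene fragments are minimum figures. A count test was not run, since the values are FPKM.

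Tests were two-sided and made on log2(FPKM + 1) with limma 3.58.1 under R 4.3.3, using lmFit and a trended eBayes on the compared groups alone. Genes needed at least 1 FPKM in 3 libraries (p150DN against EGFP 8-cell embryos) or 2 (the comparisons with blastocysts). A gene below 1 FPKM in every library of a group was thus tested only through the other group, and its direction was largely set by this filter. Benjamini-Hochberg adjusted p-values below 0.05 over all genes were called. The procedure was tested on simulated data. The 9 genes and the 11 lists (115 genes, 114 found) were chosen with earlier results of these data known, so list counts are descriptions. All 9 genes are named; of other genes, Chaf1a, up to 3 of the largest called changes per list, neighbours within 100 kb of Khdc3 and Ooep, and the 3 most correlated genes. Ube2d3, Fbxw14, Fbxw20, Fbxw21, Khdc1c, Nlrc4, Pycard, Nlrp3, Figla, Tle2 and the per-library values of list genes were added after their values were seen. Same-numbered replicates were checked for pairing. The alternatives were other pseudocounts (0.1 and 5), filters, scalings, a replicate block, 1 fit over all 8 libraries, and libraries left out.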

Additional observations from a re-analysis of the deposited data

How the results depend on the processing

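Of the results for EGFP blastocysts against EGFP 8-cell embryos, all 116 fold changes of the 9 genes under the alternatives kept their direction and call, and genes called ran from 6149 to 8203 when 1 library was left out, against 8236. For p150DN against EGFP 8-cell embryos, 115 of 133 kept both. There, 3 of the 9 genes were called lower. That number was 1 with no filter on low values, 5 with median-of-ratios scaling, 5 with p150DN replicate 1 alone and 1 to 3 with 1 library left out. Genes called numbered 4023, 2483 with p150DN replicate 1 alone and 2538 (without EGFP 8-cell replicate 1) to 4066 with 1 library left out. Ooep turned to -0.19 under quantile normalization, uncalled either way. Scaling moved the split of calls in p150DN embryos from 2887 higher and 1136 lower to 2023 and 1994 (median of ratios) or 1748 and 1827 (quantile), and in blastocysts from 5198 and 3038 to 4027 and 3985 or 3997 and 3902. For p150DN embryos against blastocysts, 97 of 124 kept both. Of the 4 genes called higher and 2 lower, 2 and 1 remained in number with no filter, where 1555 genes in all were called, against 3301, and 1 and 1 with p150DN replicate 1 alone, where 1079 were. With 1 library left out the numbers were 0 to 6 higher, 0 to 2 lower and 79 to 4152 genes in all. One fit over all 8 libraries gave 6 higher.

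The replicate numbers showed no clear pairing: same-numbered p150DN and EGFP 8-cell libraries deviated together with r of 0.0346 to 0.0986. Differently numbered ones had r of -0.12 to 0.0776, and these values do not exclude weak pairing. With a replicate block 4081 genes were called for p150DN against EGFP 8-cell embryos, and Zbed3 was called lower (-0.69, limma adjusted p = 0.0430). The block gave 7858 genes and the same 9 calls for blastocysts against EGFP 8-cell embryos. The cause of these differences was not tested. At this depth Nlrp2 and Ooep rest on 10 to 343 fragments per library, and their fold changes are the least precise in counting.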

Other observations

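Immune genes of the NLR family, listed with the inflammasome adaptor Pycard and the protease gene Casp1, which are not NLR genes, were mostly at low levels. Of 15 listed, 4 were tested in p150DN against EGFP 8-cell embryos, where 1 rose and 1 fell (24.6% and 9.68% of all genes), and 5 in EGFP blastocysts against EGFP 8-cell embryos, where 3 rose and 2 fell (42.6% and 24.9% of all genes). The 3 that rose in blastocysts were Nlrx1, Pycard (1.17, limma adjusted p = 0.000670) and Nlrc4 (0.47, 0.0266), whose call was lost in 8 of 12 alternatives. Ciita, the activator of MHC class II genes in immune cells, was at 0.778, 1.24 and 1.15 FPKM in p150DN 8-cell embryos, at 0.293 and 0.393 FPKM in blastocysts and at 2.44, 3.22 and 4.38 FPKM in EGFP 8-cell embryos. The EGFP 8-cell libraries lay above all others for Ciita, which fell by 1.07 in p150DN embryos and by 1.67 in blastocysts on the log2 scale (limma adjusted p = 0.00755 and 0.000574). Nlrx1, a mitochondrial NLR protein, averaged 1.78 ± 0.313 FPKM in p150DN 8-cell embryos, 2.48 ± 0.560 FPKM in blastocysts and 0.625 ± 0.0948 FPKM in EGFP 8-cell embryos (log2 fold changes 0.77 and 1.09, limma adjusted p = 0.0151 and 0.00137). The Nlrx1 call in p150DN embryos was lost without EGFP 8-cell replicate 1 (adjusted p up to 0.133 over the alternatives). Nlrx1 and Nlrc4 were below 1 FPKM in every EGFP 8-cell library. Ciita and Nlrp12, the 2 that fell in blastocysts, were below 1 FPKM in both blastocyst libraries. In these comparisons each was tested only through the group where it was higher, so its direction was largely set by the filter. The inflammasome gene Nlrp3 averaged 0.749 ± 0.114 FPKM in p150DN 8-cell embryos, 0.363 ± 0.172 FPKM in blastocysts and 0.237 ± 0.0172 FPKM in EGFP 8-cell embryos and was not tested.

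Of 8 oocyte transcription factor genes, 5 were tested, and 1 rose and none fell in p150DN embryos, while 2 rose and 2 fell in blastocysts, each against EGFP 8-cell embryos (limma, 0 lower in p150DN embryos at an unadjusted p below 0.05 too). The numbers that rose, 1 of 5 and 2 of 5, are near the shares over all genes. Without p150DN replicate 1 the p150DN counts of both lists were the same. Sohlh2, a basic helix-loop-helix factor of early oocytes, was at 2.17, 1.22 and 3.37 FPKM in p150DN 8-cell embryos, at 6.12 and 6.10 FPKM in blastocysts and at 0.205, 0.0842 and 0.154 FPKM in EGFP 8-cell embryos. Its groups did not overlap (log2 fold changes 1.45 ± 0.26 and 2.63 ± 0.16, limma adjusted p = 0.00390 and 3.2e-05). Sohlh2 was below 1 FPKM in every EGFP 8-cell library, and Nobox in both blastocyst libraries. In these comparisons each was tested only through the group where it was higher, so its direction was largely set by the filter. Nobox averaged 1.54 ± 0.738 FPKM in p150DN 8-cell embryos, 0.181 ± 0.0906 FPKM in blastocysts and 1.73 ± 0.469 FPKM in EGFP 8-cell embryos, and it fell in blastocysts (-1.20, limma adjusted p = 0.00146) and did not pass in p150DN embryos (-0.14, 0.720). Figla was listed at 0 in all 3 EGFP 8-cell libraries. It was at 0.582, 0.135 and 0.795 FPKM in p150DN 8-cell embryos and at 0.136 and 0.645 FPKM in blastocysts, and it was not tested.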
